A study of Mus musculus with 7 samples.

Results

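Death receptors are cell-surface proteins of the tumour necrosis factor (TNF) receptor family that carry a death domain inside the cell. Fas, bound by Fas ligand, recruits the adaptor FADD, which brings in caspase-8, a protease that starts apoptosis, while cFLIP (the product of Cflar) competes for the same complex and restrains it. The TNF receptors instead assemble TRAF2 and the kinase RIPK1, a complex that signals to NF-kappaB and turns to cell death when its brakes fail. In activated T cells these genes set the balance between activation-induced death and survival.

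The 9 genes described here, Fas, Fasl, Fadd, Casp8, Cflar, Tnfrsf1a, Tnfrsf1b, Traf2 and Ripk1, were chosen by name as the core of this pathway, with the Cre against Control differences in their counts already known from earlier work on these libraries. Their differences between the groups are therefore a description and support nothing by themselves. All 9 were found by gene name among 55364 genes, and 8 passed the filter on low counts that left 9854 genes for testing. Fadd did not pass. The filter keeps a gene with enough counts in as few libraries as the smaller group holds, so a gene high in 1 group alone can pass.

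Orthotopic lung tumours grown in C57BL/6 mice over 8 weeks old were the source of the RNA, which was taken from their CD4 T cells after sorting for CD45, CD3 and CD4. The Control group has 5 libraries from I-AbF/F mice, in which an MHC class II gene is flanked by loxP sites. The Cre group has 2 libraries from I-AbF/FCol1a2-cre mice, in which Cre is driven by the promoter of Col1a2, a collagen gene of fibroblasts, so that fibroblasts, which are not among the sorted cells, are meant to lose the allele. Both groups had tamoxifen induction and carry the floxed allele, and the comparison asks how intratumoral CD4 T cells differ when fibroblasts are the target of an MHC class II deletion. Mice with Cre and no floxed allele were not analysed here.

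Reads were counted near the 3′ ends of transcripts, and each library totalled 1449739 to 1929899 counts. At that depth a count of 0 allows up to 3 counts, or 1.55 to 2.07 CPM in 1 library, where CPM is a count scaled to the same library total, and 0.888 CPM when the Cre pair is summed. These limits and all intervals on shares cover counting error only. Among tested genes, 25.01% and 33.6% had no count in Cre replicates 1 and 2, against 1.14% to 16.1% in Control. T cell markers were present in every library: 12 genes added up to 5102 to 6756 CPM over Control libraries, and the Cre pair had 6631 and 5324 CPM with none of the 12 missing from both. Control replicate 5 stood apart, with 6732 CPM of macrophage and monocyte markers against 29.6 to 179 CPM in the other Control libraries and 192 and 78.6 CPM in Cre. Nearly all of that was Apoe, with 10867 counts there and at most 38 elsewhere. Of the other markers in that list, Control replicate 5 had 42 counts of Ly6c2, 28 of Marco, 12 of Lyz2 and 9 of C1qa. The rest were at 0 there, among them Csf1r, which had 2 counts in Control replicate 1 and 0 in every other library. Markers of fibroblasts added up to 220 to 828 CPM over Control libraries, against 346 and 60.7 CPM for the Cre pair. The part of these markers of other cells and of the genes without counts in the results below was not tested. In bulk RNA, fewer cells of a type and less RNA per cell cannot be told apart.

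Nearly all counts of the 9 genes fell in regions at annotated transcript ends, with 1 count each of Fas and Tnfrsf1a in an inner exon. The sequences shown here lie at ends within the regions that hold most Fas, Cflar and Casp8 counts. Results below differ by region for Fas and Cflar, while all Casp8 counts fell in a single region. The Cflar 3′ UTR region and the Casp8 region each pool several transcript ends. So do the Fas last-exon region (Fas-201, Fas-203 and Fas-204) and the Cflar region past Cflar-203 and Cflar-213. The counts of these regions cannot be assigned to any single one of their ends. A region at a transcript end runs 249 bases past it. The following stretches (GENCODE M21 transcripts, mm10, plus strand) lie just before 5 of these ends. A poly(A) signal, AATAAA or its common variant ATTAAA, precedes cleavage, and capitals mark the match nearest to each end. The Cflar-213 stretch holds further copies of AATAAA in lower case, and which copy is used was not measured.
Fas-201, the full-length message, at chr19:34327734-34327763: aataatttttaaATTAAAgtatctcttttt
Fas-202, a short message ending in an intron, at chr19:34309306-34309335: tgcttttgattgATTAAAatacactgtatg
Cflar-205, the full-length message, at chr1:58758850-58758879: aggagtcattacATTAAAgattatttcttt
Cflar-213, a retained-intron transcript, at chr1:58717531-58717560: taaataaataaaAATAAAaatgtatcctcg
Casp8-201, at chr1:58847470-58847499: ggtaataataatATTAAActtttttctgtg

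Searched on the transcript strand in the last 50 bases of each gene's most distal coding transcript, ATTAAA was present for 4 of the 9 genes (Fas, Fadd, Casp8 and Cflar), AATAAA for 2 (Tnfrsf1b and Ripk1), and neither for Fasl, Tnfrsf1a and Traf2. Over 21894 coding genes, 16.5% carried ATTAAA and 59.5% AATAAA, with some carrying both. A match describes the letters in that window and does not measure its use.

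Of the 9 genes, Fas alone had Cre libraries outside the Control range on the same side. It was counted in every Control library and in neither Cre library, Traf2 was also at 0 in the Cre pair, and Fasl stood at 3.63 and 1.38 CPM there. Casp8, Cflar, Tnfrsf1a, Tnfrsf1b and Ripk1 were present in both groups with overlapping levels. None of the 8 tested genes passed the quasi-likelihood test of edgeR over all genes (adjusted p = 0.214 to 0.993), where 0.0101% of all tested genes passed. At an unadjusted p under 0.05, edgeR gave 2 of them as lower (Fas and Traf2) and 0 as higher, against 10.2% lower and 1.41% higher of all tested genes. DESeq2 called 1, Fas, as lower and 0 as higher, against 7.23% and 0.417% of all genes that it gave an adjusted p, and limma voom called 0, against 0.0304%.

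**Figure D1:**
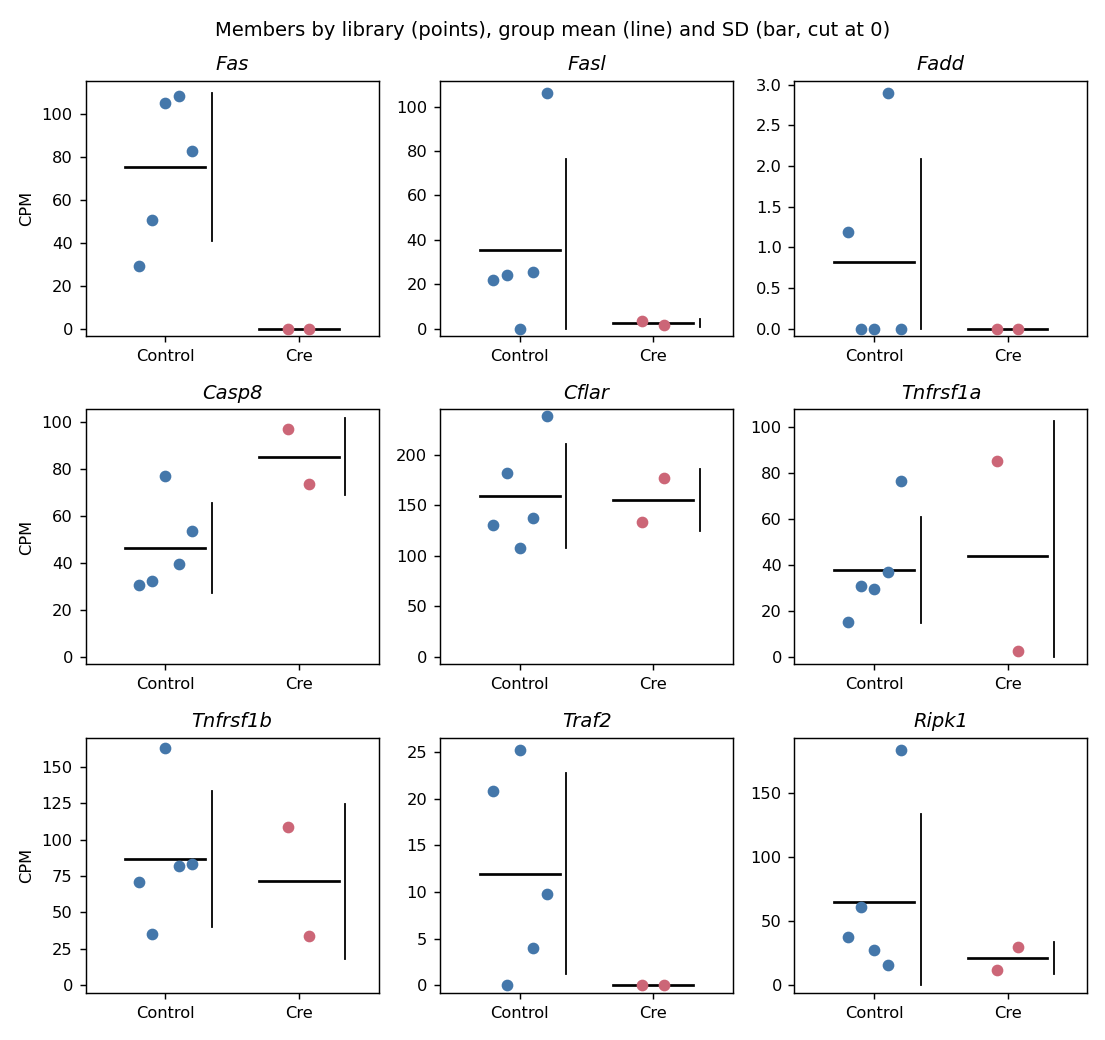
CPM of each gene (vertical axis) in the 5 Control and 2 Cre libraries, one point a library, with the group mean as a line and the SD as a bar that stops at 0. The groups are separate for Fas, where both Cre libraries lie at 0 and the lowest Control library at 29.1 CPM.

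Fasl encodes Fas ligand, the TNF family protein that activated T cells display to trigger Fas. Control replicates 1 to 5 gave 37, 36, 0, 44 and 173 counts, against 7 and 2 for Cre replicates 1 and 2. Control replicate 5 was high, Control replicate 3 had none, and the Cre libraries lay between that 0 and the other Control libraries. The levels were 35.6 ± 40.9 CPM in Control (SD, n = 5) and 2.50 ± 1.59 CPM in Cre (n = 2), and the edgeR log2 fold change was −3.73 ± 2.23 (SE; adjusted p = 0.474). Without Control replicate 5, the library with the Apoe counts, the Control level was 17.9 ± 12.04 CPM (n = 4) and the log2 fold change −2.80. All counts came from 1 region at the 3′ end (chromosome 1, 161780440 to 161781575, minus strand), which is 3′ UTR in 887 of its 1136 bases.

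Fas encodes the death receptor itself. Control replicates 1 to 5 gave 49, 75, 171, 187 and 135 counts, and neither Cre library had any. The groups did not overlap, with Cre lower, as for 10.9% of all tested genes. None of the 8 tested genes had both Cre libraries above every Control library, as for 4.05% of all tested genes. The Control level was 75.2 ± 34.6 CPM (SD, n = 5), which is 84.7-fold above the limit of 3 counts in all for the Cre pair. That ratio covers counting error only, not the spread between libraries, and is no lower bound on the difference. The fitted log2 fold change of −9.94 ± 1.92 (SE) depends on how a 0 is handled and is no estimate of size. Fas missed the threshold in edgeR (adjusted p = 0.214), passed it in DESeq2 (adjusted p = 4.5e-05) and missed it in limma voom (adjusted p = 0.22). In edgeR it also passed when genes with low counts were not removed (adjusted p = 0.0341), where 28 of 18008 genes passed as lower and 15 as higher. DESeq2 called it with any 1 of the 5 Control libraries left out (adjusted p = 5.1e-05 to 0.00021). The share of all genes called in those DESeq2 fits is not given here. Leaving out Cre replicate 1 or 2 leaves a single Cre library, and the edgeR log2 fold change was then −9.90 or −9.96. In the authors' deposited table, Fas had a log2 fold change of −6.84 and an FDR of 2.2e-05. Of the 18008 genes to which the authors' deposited table gives an FDR, 656 were lower and 38 higher at an FDR under 0.05.

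Being at 0 in both Cre libraries was shared by 13.7% of tested genes and by 2 of the 8 tested here, Fas and Traf2. The share was smaller at higher levels. It was 24.9% of 4802 genes with a Control mean under 30 CPM, the band of Traf2, and 4.09% (155 genes) of 3792 genes between 30 and 150 CPM, the band of Fas. No gene of 1260 at 150 CPM or more was at 0 in both Cre libraries. These bands were set after the values were seen.

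The Fas counts came from different ends of the gene in different Control libraries. The region in the last exon (chromosome 19, 34326993 to 34328021), which holds 329 coding bases and 451 bases of UTR, gave 17, 75, 71, 12 and 0 counts over the 5 Control replicates. The region at the end of Fas-202 (chromosome 19, 34309044 to 34309599), with 307 bases of UTR and 249 of intron, gave 31, 0, 100, 175 and 135. The Fas-202 region held 71.5% of all Fas counts in Control, with a share of 0% in Control replicate 2 (95% Wilson interval up to 4.87%) and of 100% in Control replicate 5 (from 97.2%). Fas-202 has 3 exons and 189 coding bases and ends 18422 bases before Fas-201, which has 9 exons and 981 coding bases.

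Neither Fas region separated the groups alone, since each had a Control library at 0. Tested one by one among 11801 regions, neither passed edgeR (adjusted p = 0.407 for both), where 0.00847% of regions passed. DESeq2 gave adjusted p = 0.0037 for the Fas-202 region and 0.0431 for the last-exon region, and called 8.14% of regions lower. With the most used region of each gene in place of the sum, the edgeR adjusted p of Fas was 0.388. The separation of the groups at Fas therefore holds for the sum over its regions and not for either region alone, and Control replicate 5 had no count at the full-length end.

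**Figure D2:**
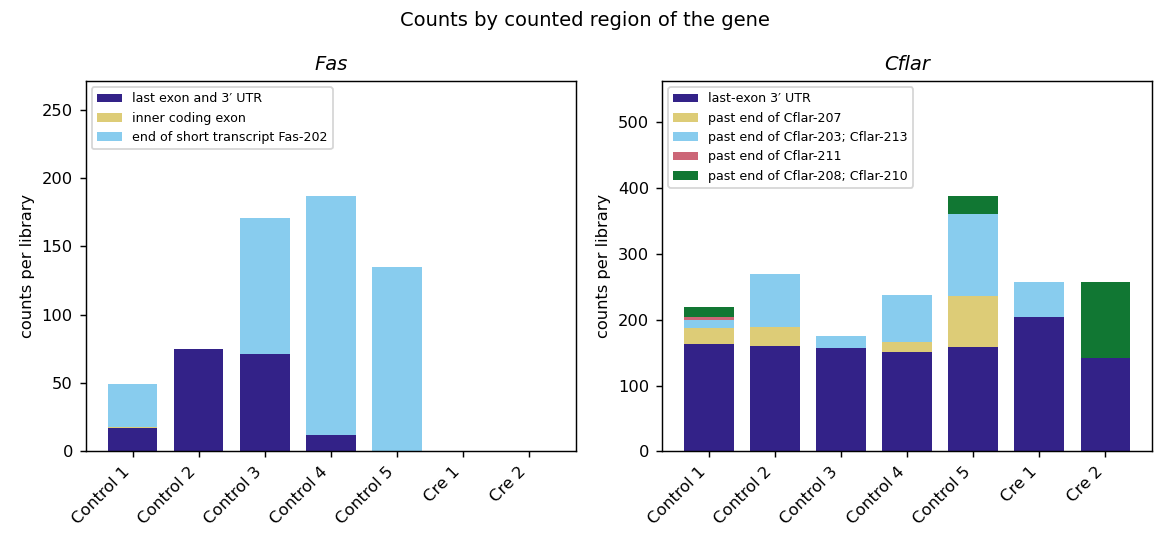
Counts per library (vertical axis) of Fas and Cflar, stacked by counted region of the gene. Fas counts lie mostly at the end of Fas-202 in Control replicate 4, wholly there in Control replicate 5 and wholly at the last exon in Control replicate 2, while the Cflar 3′ UTR bar stands between 142 and 204 counts in all 7 libraries.

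The genes whose levels most resembled Fas were looked up by the Pearson correlation of log2(CPM + 1) over the 7 libraries, among 9853 other tested genes. The 5 highest were Wbp4 (r = 0.999), Osbpl3 (0.993), Smg5 (0.992), Lmnb2 (0.992) and Xrn2 (0.990). Of these, 4 were, like Fas, at 0 in the Cre pair, and Xrn2 averaged 0.345 CPM there. The 7 points share the libraries and their depths, and a high r here rests largely on the Cre points at or near 0. It is given as a description, and shared regulation with Fas was not tested.

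Tnfrsf1a encodes TNF receptor 1, the TNF receptor with a death domain. The 5 Control libraries gave 26, 46, 48, 64 and 125 counts, against 165 and 4 for the Cre pair. The Cre libraries lay on opposite sides of the whole Control range. The means were 38.0 ± 23.1 CPM in Control (SD, n = 5) and 44.1 ± 58.5 CPM in Cre (n = 2), with a log2 fold change of 0.27 ± 1.33 (edgeR adjusted p = 0.965). It was −3.71 without Cre replicate 1 and 1.24 without Cre replicate 2, so no direction can be given. The counted region overlaps one of Plekhg6 on the other strand, and Plekhg6 had 0 counts in every library.

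Tnfrsf1b encodes TNF receptor 2, which lacks a death domain and is prominent on activated and regulatory T cells. Control libraries gave 119, 52, 264, 141 and 135 counts, against 210 and 49 for the Cre pair, all from the 3′ end of the gene (chromosome 4, 145213214 to 145215786). Cre replicate 1 lay inside the Control range and Cre replicate 2, at 33.8 CPM, just under the lowest Control library at 35.0 CPM. The levels were 86.5 ± 46.6 and 71.3 ± 53.0 CPM, a log2 fold change of −0.25 ± 0.84 (edgeR adjusted p = 0.948). The sign turned without Cre replicate 2 (0.39) and without Control replicate 3 (0.13).

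The balance of the TNF receptors varied widely between libraries of both groups. Tnfrsf1a made up 17.9%, 46.9%, 15.4%, 31.2% and 48.1% of the counts of both receptor genes in Control replicates 1 to 5. The Cre shares were 44.0% (95% Wilson interval 39.1% to 49.1%) and 7.55% (2.97% to 17.9%). The latter share rests on 53 counts. Cre replicate 1 lay inside the Control range and Cre replicate 2 below it, and the interval of the latter overlaps those of Control replicates 1 and 3.

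**Figure D3:**
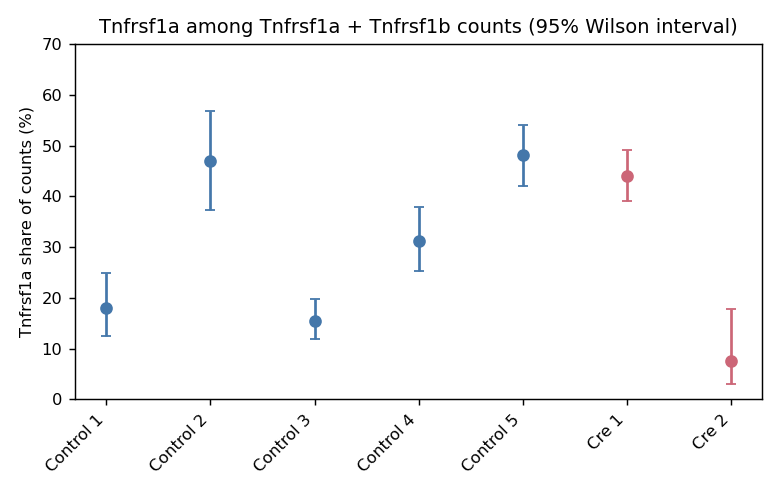
Percent of Tnfrsf1a among the summed Tnfrsf1a and Tnfrsf1b counts (vertical axis) in each library, with 95% Wilson intervals. The shares run from 15.4% to 48.1% in Control and stand at 44.0% and 7.55% in Cre.

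Fadd encodes the adaptor that links Fas to caspase-8. Control libraries gave 2, 0, 0, 5 and 0 counts and the Cre pair none, with a Control mean of 0.817 ± 1.27 CPM (SD, n = 5). Both groups lie near the limit that a count of 0 allows, so its level could not be compared at this depth. Its counted region covers 3211 bases of 3′ UTR (chromosome 7, 144577069 to 144580528).

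Traf2 encodes an adaptor and ubiquitin ligase of the TNF receptors. Control libraries gave 35, 0, 41, 7 and 16 counts and the Cre pair none. Control replicate 2 was at 0 too, so the groups overlap. The Control mean was 11.97 ± 10.8 CPM (SD, n = 5), which is 13.5-fold above the limit of 3 counts in all for the Cre pair. That ratio covers counting error only, not the spread between libraries, and is no lower bound on the difference. Traf2 did not pass edgeR (adjusted p = 0.427), DESeq2 (adjusted p = 0.14) or limma voom (adjusted p = 0.447), and the authors' deposited table gives it an FDR of 0.105.

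Ripk1 encodes the kinase that sits in the TNF receptor complex and can turn the signal toward death. The 5 Control libraries gave 64, 91, 45, 27 and 299 counts, against 24 and 44 for the Cre pair. Control replicate 5 was the highest by far, and the remaining libraries of both groups ran from 12.4 to 61.3 CPM. The means were 65.3 ± 68.3 CPM in Control (SD, n = 5) and 21.4 ± 12.7 CPM in Cre (n = 2), with a log2 fold change of −1.57 ± 1.26 (edgeR adjusted p = 0.655). Without Control replicate 5 the Control mean was 35.6 ± 19.4 CPM (n = 4) and the log2 fold change −0.75. Of the 299 counts in that library, 52 and 25 fell in a pair of intronic regions past the ends of retained-intron transcripts, where Control replicate 1 had 13 and the 5 remaining libraries none. The main Ripk1 region overlaps one of Gm17084 on the same strand, a gene with 0 to 30 counts in Control and 0 in Cre.

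Casp8 encodes caspase-8. Control libraries gave 52, 48, 125, 68 and 87 counts, against 187 and 107 for the Cre pair. Cre replicate 1 lay above every Control library and Cre replicate 2, at 73.8 CPM, below Control replicate 3 alone, at 76.9 CPM. The means were 46.6 ± 19.1 CPM in Control (SD, n = 5) and 85.4 ± 16.3 CPM in Cre (n = 2), a ratio of 1.83, and the difference did not pass edgeR (log2 fold change 0.89 ± 0.87, adjusted p = 0.739) or DESeq2 (adjusted p = 0.605). The log2 fold change ran from 0.69 to 1.18 with each library left out in turn. All counts came from the 3′ end of the gene (chromosome 1, 58846755 to 58847752).

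Cflar encodes cFLIP, which resembles caspase-8 but lacks its protease activity. Control libraries gave 220, 270, 176, 238 and 388 counts, against 258 and 257 for the Cre pair, and both Cre libraries lay inside the Control range. The means were 159 ± 51.6 CPM in Control (SD, n = 5) and 155 ± 30.8 CPM in Cre (n = 2). The log2 fold change was −0.02 ± 0.51 (edgeR adjusted p = 0.993), and its sign turned under other settings of the analysis. Cflar had the lowest variation of the 9 genes among Control libraries (coefficient of variation 32.4%, against 41.1% to 156% for the others).

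The 3′ UTR of the full-length Cflar messages (chromosome 1, 58753923 to 58759133) gave 163, 160, 157, 151 and 159 counts over the Control libraries, against 204 and 142 for the Cre pair, with a log2 fold change of 0.03 ± 0.64 when tested as a region. The remaining Cflar counts, 57, 110, 19, 87 and 229 for Control against 54 and 115 for Cre, fell in 4 regions past the ends of noncoding transcripts inside the gene. These upstream regions differed between libraries. The one past Cflar-208 and Cflar-210 had 115 counts in Cre replicate 2, 16 and 28 in Control replicates 1 and 5 and 0 elsewhere, and the one past Cflar-207 gave 25, 29, 0, 15 and 77 counts over Control and none in the Cre pair. A shorter coding message, Cflar-204, with 645 coding bases against 1443 in Cflar-205, ends in a region of its own that had 0 counts in all 7 libraries.

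**Figure D4:**
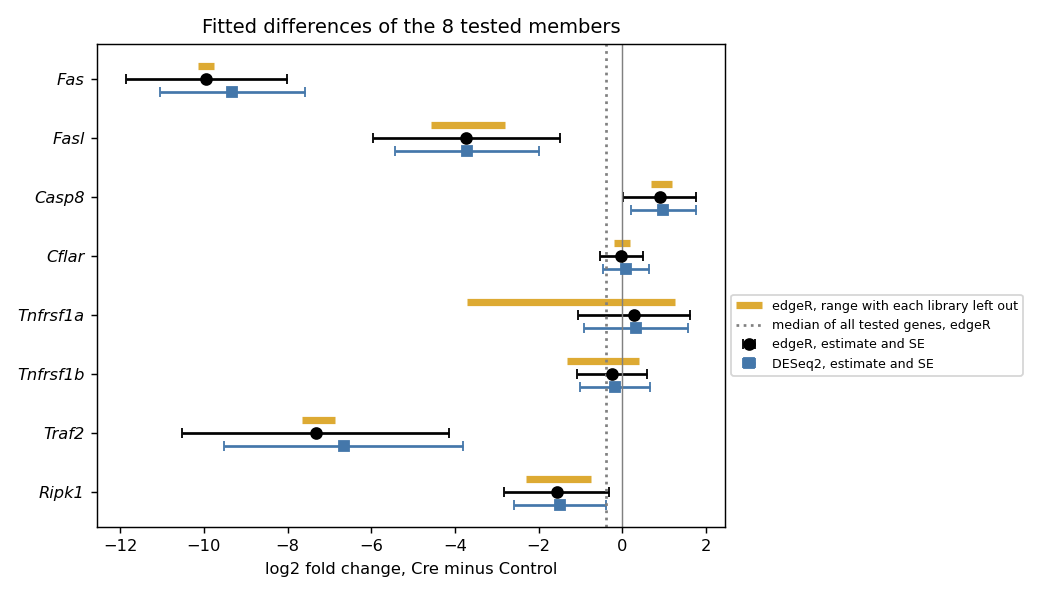
Log2 fold change, Cre minus Control (horizontal axis), of the 8 tested genes: edgeR estimate and SE (circles), DESeq2 estimate and SE (squares) and the range of edgeR estimates with each library left out (bars), with the median of all tested genes as a dotted line. Fas, Traf2 and Fasl lie furthest to the left, and the Tnfrsf1a bar spans 0, from −3.71 to 1.24.

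By fitted value, 6 of the 8 tested genes were lower for Cre and 2 higher, with a median log2 fold change of −0.91. Over all tested genes 60.1% were lower, with a median of −0.39. By Control mean, the median was −0.83 under 30 CPM, the band of Traf2 alone among the tested members. It was −0.35 between 30 and 150 CPM, the band of most members, and −0.11 at 150 CPM or more, the band of Cflar.

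The pathway around these genes was described by 6 lists with 86 genes, of which 65 were tested. None passed edgeR in either direction. At an unadjusted p under 0.05, edgeR gave 8 of the 65 as lower and 2 as higher, where it gave 10.2% of all tested genes as lower and 1.41% as higher. DESeq2 called 5 of the 65 as lower (7.69%) and 0 as higher, where it called 7.23% of all genes with an adjusted p as lower. Of the 65, 7 (10.8%) had the Cre pair below the whole Control range and 1 had it above, against 10.9% and 4.05% of all tested genes.

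Among 16 other death ligands and receptors, 7 were tested, 4 higher and 3 lower for Cre by fitted value. Ltb, which encodes the membrane partner of lymphotoxin, averaged 1231 ± 404 CPM over Control and 1614 ± 370 CPM over Cre (adjusted p = 0.703). Tnfsf14, which encodes the ligand LIGHT, had 492 counts in Cre replicate 1 and 0 in Cre replicate 2, against 1 to 77 in Control. Tnfsf10, which encodes the death ligand TRAIL, gave 27, 55, 41, 1 and 62 counts over Control, against 9 and 0 for Cre (adjusted p = 0.576). Tnf itself, named here as the ligand of both TNF receptors and not by the rule, gave 4, 0, 6, 0 and 146 counts over Control, against 5 and 1 for Cre, and was not tested.

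Of 14 tested adaptors and kinases, 7 were higher and 7 lower for Cre by fitted value. Traf6, an adaptor of interleukin-1 and Toll-like receptor signalling, gave 32, 85, 6, 0 and 130 counts over Control and none in the Cre pair, and passed DESeq2 (adjusted p = 0.021) but not edgeR (adjusted p = 0.422). Daxx, first described as a Fas-binding protein, averaged 163 ± 68.2 CPM over Control and 399 ± 212 CPM over Cre (edgeR adjusted p = 0.422). Zbp1, a nucleic acid sensor that binds RIP kinases, stood at 386 ± 105 and 367 ± 87.8 CPM.

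The 14 ubiquitin enzymes and binders of the TNF receptor complex were all tested, 7 with higher and 7 with lower fitted values. The 3 of smallest p were lower. Sharpin, a subunit of the linear ubiquitin ligase, had 94.96 ± 41.4 CPM in Control, with the Cre pair below that whole range at 23.6 ± 4.05 CPM (edgeR adjusted p = 0.429). Rnf31, the catalytic subunit of that ligase, and Tnip2 were at 0 in both Cre libraries and also in 1 Control library each. The deubiquitinase gene Cyld had 396 ± 70.8 and 383 ± 148 CPM.

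Of 12 genes of the IKK and NF-kappaB list, 9 had higher and 3 lower fitted values, with a median log2 fold change of 0.42. Ikbkb, which encodes a catalytic kinase of the IKK complex, had 138 ± 15.8 CPM in Control, with the Cre pair above that whole range at 287 ± 133 CPM (edgeR adjusted p = 0.427). Ikbkg, which encodes the regulatory subunit NEMO, gave 64, 27, 40, 24 and 138 counts over Control, against 5 and 0 for Cre, and passed DESeq2 (adjusted p = 0.0319), not edgeR (adjusted p = 0.427). Nfkbia, an inhibitor and target of NF-kappaB, had 1278 ± 375 and 1603 ± 25.8 CPM.

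Of the 9 other caspases, 6 were tested, 5 with lower and 1 with higher fitted values. Casp9, which encodes the initiator caspase of the apoptosome, gave 22, 0, 0, 10 and 18 counts over Control and none in the Cre pair (edgeR adjusted p = 0.431). Casp6 averaged 24.0 ± 24.9 CPM over Control and 46.0 ± 33.9 CPM over Cre.

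Of 12 tested caspase substrates and apoptosome genes, 6 had higher and 6 lower fitted values. Dffb, the nuclease that cuts DNA in apoptosis, gave 24, 24, 107, 24 and 85 counts over Control, against 1 and 0 for Cre. Parp1, a DNA repair enzyme cleaved by caspases, gave 121, 130, 60, 32 and 163, against 11 and 0. Both passed DESeq2 (adjusted p = 0.012 and 0.0129) and neither passed edgeR (adjusted p = 0.393 and 0.422). Gsdmd, which encodes the pore protein gasdermin D, averaged 23.8 ± 30.9 CPM over Control and 0.518 ± 0.733 CPM over Cre and passed neither.

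**Figure D5:**
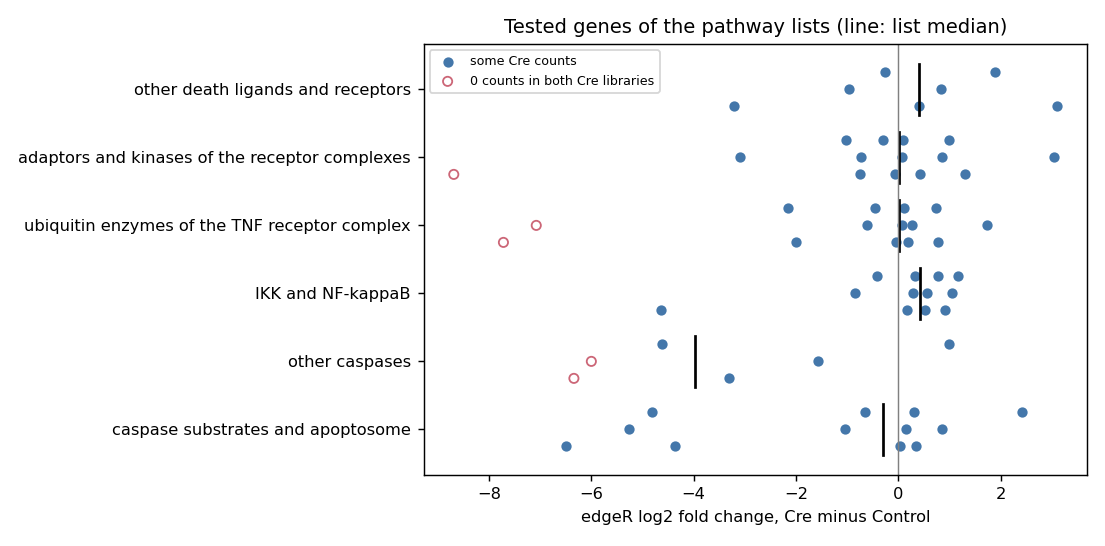
EdgeR log2 fold change, Cre minus Control (horizontal axis), of the 65 tested genes in the 6 pathway lists, with open circles for genes at 0 in both Cre libraries and a line at each list's median. The other caspases lie mostly to the left, with Casp6 alone to the right, and the medians of the ligand and the NF-kappaB lists lie furthest to the right, at 0.40 and 0.42.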

How the data were processed

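Sorted CD4 T cells of 5 Control and 2 Cre libraries were profiled by 3′ RNA-seq, and groups were taken from the sample titles. Values are deposited as unnormalized counts for each 3′ region, per the file headers. Per the submitters' processing notes, the tools were FastQC 0.11.8, HISAT2 2.1.0 and DESeq2 on build mm10; which counter, strand setting and annotation were used is not given in the sources used here. Beside the counts, the authors' deposited table gives the Cre against Control fold as a ratio and as a log2 value, with DESeq2 p-values and FDR, and the GC content in percent. GENCODE M21 (same build) gave transcripts and ends; the 9 genes have the same coordinates there.

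Counts of 116000 regions were summed per gene and tested with edgeR 4.0.16 (R 4.3.3): TMM, filterByExpr defaults (minimum count 10, minimum total 15), robust quasi-likelihood F-test, group as the only term, two-sided p-values adjusted by Benjamini-Hochberg over 9854 genes, threshold 0.05. The SE was taken from the F statistic. Alternatives were DESeq2 1.42.0, limma voom 3.58.1, other scalings and filters, a replicate block, single regions and each library left out. The fit was tested on simulated data. No pair of libraries agreed within sampling noise (chi-square over genes), and p-values measure the spread between these libraries, which the series design calls biological replicates. The members and lists were chosen with earlier results of these data known. Named genes are all 9 members, of each pathway list up to 3 of smallest p and the 2 of highest mean, and the 5 genes most like Fas; those printed were picked among them after their values were seen. Values of some single genes of the pathway lists are not reported here.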

Additional observations from a re-analysis of the deposited data

Results flagged for a closer look

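In Control replicate 5, Fasl (106 CPM) and Ripk1 (184 CPM) each stood apart from the other 4 Control libraries. The gap to the nearest library was 0.76 of the Control range for Fasl and 0.728 for Ripk1, above Dixon's 95% critical value of 0.71. For normally distributed values, chance marks about 1 in 20 such groups, and 9 genes were looked at. Whether these CPM values meet that assumption was not tested, and for skewed counts the rate can be higher. This is also the library with 10867 counts of Apoe and the highest Cflar, Tnfrsf1a and Tnf counts in Control; the part of carry-over from other cells was not tested.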

How the results depend on the processing

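edgeR called 0 genes higher and 1 lower in Cre. The counts were 35 and 607 with DESeq2, 3 and 0 with limma voom, and 15 and 28 without a filter on low counts. They ran from 0 to 17 higher and from 1 to 202 lower with a library left out, the highest of both without Cre replicate 1, where the Cre arm has 1 library that is assumed to vary like Control. Members past the threshold numbered 0 in edgeR, 1 (Fas) with DESeq2 and 1 (Fas) without a filter, and from 0 to 1 with a library left out. With a Control library left out, DESeq2 called from 1 to 2 members, the second being Fasl without Control replicate 3 (adjusted p = 0.0482). That replicate is the only Control library with 0 Fasl counts, so leaving it out removes the overlap of the groups. The share of all genes called in these DESeq2 fits is not given here.

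With the replicate number as a block edgeR called 5 genes lower, 0 higher and 0 members. The deviations of same-numbered libraries from their group means correlated at 0.0039 and 0.0026. The deviations of the Cre pair mirror each other by construction, so this check cannot decide whether same-numbered libraries are paired. Signs turned for members near 0. Cflar was 0.0738 with DESeq2 size factors, 0.0808 without a filter, 0.0737 with DESeq2 and 0.0452 with the most used region (0.028 among single regions, an alternative chosen after seeing the data), and from −0.19 to 0.18 with a library left out. Tnfrsf1a was −0.85 with voom and −0.45 under the replicate block, and from −3.71 to 1.24 with a library left out. Tnfrsf1b was 0.25 under the replicate block and from −1.34 to 0.385 with a library left out. The cause of these changes was not tested. Of 134 values of single members under an alternative, 117 kept direction and side of the threshold, 14 turned sign and 3, all Fas, newly passed. A strict filter of 10 counts in 5 libraries removed Fasl and Traf2, which then have no value. The median log2 fold change over the genes tested was −0.39, and −0.29 with DESeq2 size factors, −0.49 with upper-quartile factors, −0.75 with voom, −0.95 with the replicate block, −1.32 without a filter and −0.12 with the strict one. It was −2.40 without Cre replicate 1, −1.22 without Cre replicate 2 and −0.34 to −0.26 without a Control library; the genes tested differ between these fits where the filter or the libraries do. Fadd had too few counts for a comparison at this depth.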
